A study of Mus musculus with 32 samples.

Results

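Lox, Mmp12, Mmp14, Adam8, Plau, Plaur, Timp2, Serpine2, Serpinf1 and Fgl2 encode an enzyme that crosslinks the extracellular matrix, proteases that cut matrix and cell surface proteins, the urokinase receptor, inhibitors and other serpins, and a fibrinogen-like protein. These 10 of the 18588 genes in the table were chosen by name with earlier results of the same data known. Lox and Serpinf1 were selected on their patterns over genotype and age, so their signals are described and their differences between groups were not tested. The other 8 genes were tested, and no gene was left out by a filter on low values.

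RNAseq of microglia from rTg4510 and wild type (WT) mice at 2, 4, 6 and 8 months of age asked how microglial gene expression differs with the tau transgene at each age. All mice were female. The rTg4510 mice carried a tetracycline-controlled transactivator under the CaMKIIα promoter together with a tetracycline-responsive human tau gene with the P301L mutation, which doxycycline can repress, so that mutant tau is made by forebrain neurons. The WT mice, with the strain label 129/FVB F1, were littermates without a transgene. Each library came from cells captured with CD11b MicroBeads from forebrains that were pooled from 8 to 10 animals. Of 32 libraries the authors kept 28, so that every group has 4 at the ages of 2 and 6 months and 3 at the ages of 4 and 8 months. The other 4 had failed quality control and appear here only where they are named. The values are log2 gene signals that are not divided by gene length, so levels were compared between libraries and not between genes, except to name the gene with the highest mean signal of a marker list. A gene was called higher or lower in a limma fit at a false discovery rate (FDR) under 0.05 with a change above 1.5 fold.

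The extracellular matrix is built from crosslinked fibres and proteoglycans and is remodelled by metalloproteinases and by the plasmin system, in which the urokinase Plau, held at the cell surface by its receptor Plaur, activates plasminogen. Tissue inhibitors of metalloproteinases (Timps) and serpins, which trap serine proteases, keep these enzymes in check. Microglia and macrophages make several members of both systems, and urokinase and its receptor are well known products of activated macrophages.

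At 2 months, Plaur and Fgl2 were higher in rTg4510 than in WT microglia, which makes 2 of the 8 tested genes, beside 1.58% of all 18588 genes called higher and 0.403% called lower. At 4 months, 7 of the 8 were higher, with Adam8 the exception, beside 9.47% of all genes higher and 4.33% lower. The same 7 genes were higher at 6 months, when 11.3% of all genes were higher and 8.54% lower. Adam8 joined them at 8 months, so that all 8 tested genes were higher, beside 10.5% of all genes higher and 5.37% lower. Called lower by limma at the 4 ages were 0 of the 8 genes, and 0 were lower at an unadjusted p under 0.05 or with moderated variances. In each of these calls every rTg4510 library lay above every WT library of the same age. Such separation was not counted over the other called genes of the table, so it adds no support to the calls. Without WT replicate 2 of 2 months, 48 genes of the table in place of 75 were lower at that age. The median log2 difference of the 8 genes was 0.30, 1.04, 1.01 and 1.12 at 2, 4, 6 and 8 months, and that of all genes was 0.0143, -0.037, -0.035 and -0.014. The members were chosen with these results known, so the counts describe the chosen genes and are no evidence about matrix genes as a class. In such bulk libraries, fewer cells of a type and less RNA per cell cannot be told apart.

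**Figure D1:**
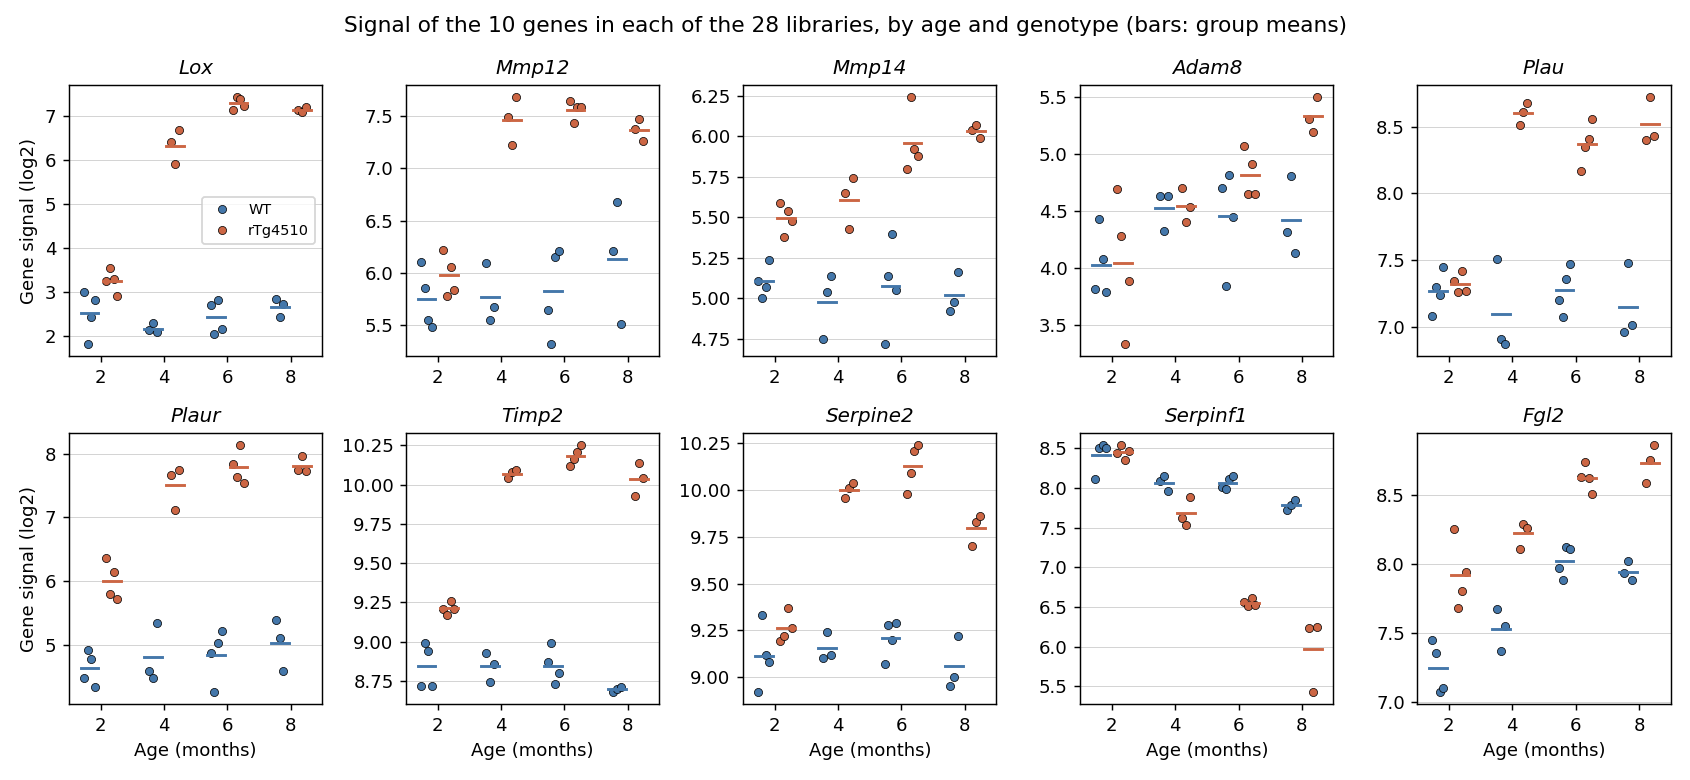
Each panel shows 1 gene, with its log2 signal on the vertical axis and age in months on the horizontal axis. Points are single libraries (28 in all), blue for WT and orange for rTg4510, and bars are group means. The rTg4510 libraries lie above the WT libraries for Lox from 4 months on (5.90 or more against 2.84 or less), and below them for Serpinf1 at 6 and 8 months (6.61 or less against 7.73 or more).

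Lox, which oxidizes lysines of collagen and elastin so that the fibres can be crosslinked, was close to the lower limit of the measurement in WT. At 2 months its log2 signal was 2.99, 1.81, 2.43 and 2.81 in the WT libraries and 3.25, 3.55, 3.28 and 2.89 in the rTg4510 libraries. At 4 months it was 2.12, 2.28 and 2.07 in WT and 6.40, 5.90 and 6.68 in rTg4510. The groups overlapped at 2 months and were far apart at 4 months. At 6 months the WT libraries had 2.70, 2.04, 2.80 and 2.14, and the rTg4510 libraries 7.14, 7.43, 7.38 and 7.23. At 8 months the signal was 2.84, 2.42 and 2.72 in WT and 7.14, 7.09 and 7.21 in rTg4510. The WT libraries thus stayed low at every age, while the rTg4510 libraries of 6 and 8 months lay above those of 4 months, and those of 6 and 8 months overlapped.

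In each library the smallest values form steps that can be read as counts with 1.5 added before taking log2, and a floor of 3 counts, set per library, then averages 3.11 to 3.26 in the WT groups. Every WT library was at or under this floor for Lox (4 of 4, 3 of 3, 4 of 4 and 3 of 3 from 2 to 8 months), as were 2 of the 4 rTg4510 libraries of 2 months, so no fold is given for that age. Against the floor, the rTg4510 signal of Lox was at least 9.31-fold higher at 4 months, and at least 16.5-fold and at least 16.0-fold higher at 6 and 8 months. Lox (Entrez 16948) lies on chromosome 18 from 52516060 to 52529867 of GRCm38.p6. An antisense gene of GENCODE M21, AC161119.1, shares 30 exon bases with it, and whether reads were counted by strand is not given in the sources used here.

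Mmp12, the macrophage metalloelastase (Entrez 17381; chromosome 9, 7344397 to 7360461), was higher in rTg4510 from 4 months on. At 2 months its signal was 6.10, 5.85, 5.55 and 5.48 in WT and 6.22, 5.78, 6.06 and 5.84 in rTg4510. At 4 months the WT libraries had 6.09, 5.55 and 5.67, and the rTg4510 libraries 7.49, 7.22 and 7.68. The ranges overlapped at 2 months and were separate at 4 months. At 6 months WT had 5.64, 5.32, 6.15 and 6.21 beside 7.64, 7.43, 7.59 and 7.59 in rTg4510, and at 8 months WT had 6.21, 6.68 and 5.51 beside 7.38, 7.47 and 7.26. The log2 difference was 0.23 ± 0.219 (SE) at 2 months (limma FDR 0.703), and 1.70 ± 0.253 at 4 months (limma FDR 2.78e-05) and 1.73 ± 0.219 at 6 months (limma FDR 1.92e-06). At 8 months it was 1.23 ± 0.253 (limma FDR 0.000778), with each of the 3 rTg4510 libraries above each WT library. In a fit with only the 6 libraries of 8 months the difference kept its size and was no longer called. GENCODE M21 has a longer Mmp12 transcript that runs past the RefSeq gene and shares 157 exon bases with Mmp1b on the opposite strand.

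Mmp14, a metalloproteinase anchored in the plasma membrane that cuts collagen and activates pro-Mmp2, was separate between the genotypes at each age, with smaller differences. Its WT libraries ranged from 4.72 to 5.40 over the 4 ages. The rTg4510 libraries ranged from 5.38 to 5.59 at 2 months, from 5.43 to 5.74 at 4 months, from 5.80 to 6.24 at 6 months and from 5.99 to 6.07 at 8 months. The difference at 2 months, 0.39 ± 0.12, was not called (limma FDR 0.0608), while those of 0.63, 0.89 and 1.01 at 4, 6 and 8 months were (limma FDR 0.00166, 4.66e-06 and 7.13e-06). At 4 months the call was lost without WT replicate 1 (0.52) or rTg4510 replicate 4 (0.57), with all 32 libraries, where the difference was 0.31, and in a fit with the libraries of 4 months alone.

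Adam8, a membrane metalloproteinase of leukocytes that sheds surface proteins, was the last of the tested genes to be called. At 6 months the WT libraries had 4.70, 3.84, 4.82 and 4.45 and the rTg4510 libraries 5.07, 4.65, 4.91 and 4.65. At 8 months WT had 4.31, 4.81 and 4.13 and rTg4510 had 5.31, 5.19 and 5.50. The genotypes overlapped at 2, 4 and 6 months and were separate at 8 months. At 6 months, where deviations of same-numbered libraries correlated, each rTg4510 library lay above the WT library of its number. The labels do not say what a number marks, and a fit with a replicate block did not call Adam8 at 6 months either. The log2 difference was 0.01 ± 0.244, 0.02 ± 0.282, 0.37 ± 0.244 and 0.91 ± 0.282 at the 4 ages (limma FDR 0.992, 0.977, 0.263 and 0.02). At 8 months the call was lost without rTg4510 replicate 3 (0.83), WT replicate 1 (0.86) or WT replicate 3 (0.77), and in a fit with the libraries of 8 months alone. GENCODE M21 has 46 exon bases of Gm16201 on the opposite strand across from Adam8. The 95% confidence interval of the difference was -0.57 to 0.61 at 4 months, and the effect at 8 months did not pass the test of a difference from that at 6 months (0.54 ± 0.373, limma FDR 1.0).

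Plaur, the urokinase receptor (Entrez 18793), had the largest log2 differences of the 8 tested genes at each of the 4 ages. At 2 months its signal was 4.49, 4.93, 4.79 and 4.35 in WT and 6.36, 5.81, 6.15 and 5.72 in rTg4510. At 4 months WT had 4.60, 4.48 and 5.35, and rTg4510 had 7.66, 7.11 and 7.74. The genotypes were separate at both ages, and the rTg4510 libraries of 4 months all lay above those of 2 months. At 6 months the values were 4.88, 4.27, 5.04 and 5.23 in WT and 7.84, 7.63, 8.13 and 7.54 in rTg4510. At 8 months they were 5.40, 5.12 and 4.59 in WT and 7.74, 7.97 and 7.73 in rTg4510. The differences were 1.37 ± 0.238, 2.69 ± 0.274, 2.93 ± 0.238 and 2.77 ± 0.274, or 2.59-fold, 6.45-fold, 7.62-fold and 6.83-fold (limma FDR 0.000839, 1.97e-07, 3.21e-09 and 9.91e-08).

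Its ligand Plau, the urokinase-type plasminogen activator (Entrez 18792; chromosome 14, 20836662 to 20843388), was not called at 2 months, where the 95% interval of its log2 difference ran from -0.23 to 0.34. The signal at that age was 7.08, 7.30, 7.24 and 7.45 in WT and 7.34, 7.26, 7.42 and 7.27 in rTg4510. At 4 months WT had 7.51, 6.91 and 6.87, and rTg4510 had 8.51, 8.61 and 8.68. Plau thus overlapped at 2 months and was separate by 4 months, whereas its receptor was already separate at 2 months. At 6 months the signal was 7.20, 7.07, 7.36 and 7.47 in WT and 8.17, 8.35, 8.41 and 8.56 in rTg4510, and at 8 months 6.96, 7.48 and 7.01 in WT and 8.40, 8.72 and 8.43 in rTg4510. Plau was 2.83-fold higher at 4 months (95% interval of the log2 difference 1.17 to 1.83), 2.14-fold at 6 months and 2.58-fold at 8 months (limma FDR 3e-07, 1.68e-06 and 8.21e-07), beside a log2 difference of 0.05 ± 0.137 at 2 months (limma FDR 0.923).

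Timp2, an inhibitor of metalloproteinases that also takes part in the activation of pro-Mmp2 by Mmp14, had the smallest SE of the 8 tested genes. At 2 months its signal was 8.72, 8.99, 8.94 and 8.72 in WT and 9.21, 9.17, 9.26 and 9.21 in rTg4510. At 4 months it was 8.93, 8.74 and 8.86 in WT and 10.04, 10.08 and 10.09 in rTg4510. The genotypes were separate at both ages. The WT range was 8.73 to 8.99 at 6 months and 8.68 to 8.71 at 8 months, beside rTg4510 ranges of 10.12 to 10.25 and 9.93 to 10.14. The difference at 2 months, 0.37 ± 0.0615, passed the FDR (0.000568 in limma) but at 1.29-fold not the fold threshold. At 4, 6 and 8 months Timp2 was 2.34-fold, 2.53-fold and 2.52-fold higher (limma FDR 7.96e-11, 1.17e-12 and 2.03e-11).

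Serpine2, or protease nexin, a serpin that blocks thrombin, urokinase and plasmin, was called higher from 4 months on. Its WT libraries ranged from 8.92 to 9.33 over all ages, and the rTg4510 libraries from 9.19 to 9.37 at 2 months, from 9.96 to 10.04 at 4 months, from 9.98 to 10.24 at 6 months and from 9.70 to 9.86 at 8 months. The groups overlapped at 2 months and were separate from 4 months on. The differences were 0.15 ± 0.0785, 0.85 ± 0.0907, 0.92 ± 0.0785 and 0.74 ± 0.0907 (limma FDR 0.375, 3.54e-07, 6.85e-09 and 1.7e-06). With quantile normalization the difference at 8 months was 0.51 and no longer above 1.5 fold. Within rTg4510 the log2 difference between 8 and 6 months was -0.33, which did not pass (limma FDR 0.0894).

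Serpinf1, the secreted serpin also named pigment epithelium-derived factor, which does not inhibit proteases, went the other way. At 2 months its signal was 8.11, 8.50, 8.54 and 8.50 in WT and 8.44, 8.54, 8.36 and 8.47 in rTg4510. At 4 months it was 8.09, 8.15 and 7.96 in WT and 7.62, 7.54 and 7.89 in rTg4510. The groups overlapped at 2 months, while the rTg4510 libraries of 4 months lay just under those of WT. The rTg4510 library of 4 months that was left out had 8.97, above every WT library of that age, and with all 32 libraries the difference at 4 months was -0.15. At 6 months WT had 8.02, 7.99, 8.12 and 8.15, and rTg4510 had 6.56, 6.51, 6.61 and 6.53. At 8 months WT had 7.73, 7.79 and 7.85, and rTg4510 had 6.24, 5.43 and 6.25. The log2 differences were 0.04, -0.38, -1.52 and -1.82 at the 4 ages, so that the rTg4510 libraries were lower by more at 6 and 8 months than at 4 months. The sign at 2 months turned without WT replicate 1 (-0.06). WT libraries were also lower at 8 than at 2 months, by a log2 difference of -0.62, and rTg4510 replicate 2 of 8 months was the lowest of all 28.

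Fgl2, a fibrinogen-like protein of macrophages and lymphocytes that can cleave prothrombin in its membrane form, was higher in rTg4510 at each age. At 2 months its signal was 7.45, 7.35, 7.07 and 7.10 in WT and 8.25, 7.68, 7.80 and 7.94 in rTg4510. At 8 months it was 7.93, 8.02 and 7.88 in WT and 8.59, 8.75 and 8.86 in rTg4510. The genotypes were separate at both ages. Its log2 difference was 0.67 ± 0.107 at 2 months and then 0.69 ± 0.124, 0.60 ± 0.107 and 0.79 ± 0.124 (limma FDR 0.000365, 0.000237, 0.000133 and 3.99e-05), of which the smallest is 1.52-fold. Fgl2 fell under 1.5 fold, at 0.56, without rTg4510 replicate 1 at 2 months, and likewise at 0.56 without replicate 2 of either genotype at 6 months. With quantile normalization it was 0.47 at 6 months, and with only the groups compared the calls at 2 months and between ages of WT were lost. It was the single gene of the 8 called between 8 and 2 months in WT (0.70 ± 0.116, limma FDR 0.00237), where 0.533% of all genes were higher and 0.737% lower. That background of 99 higher and 137 lower genes depended on single WT libraries, and was 58 and 81 without replicate 3 of 2 months, and 54 and 41, 39 and 104, and 158 and 176 without replicates 1, 2 and 3 of 8 months. With all 32 libraries it was 29 and 14. Timp2 alone was lower between these ages of WT at an unadjusted p under 0.05, beside 3561 of all genes in either direction. Of the 8 genes, 0 were called lower by limma with either kind of variance.

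The difference between the genotype effects of consecutive ages was tested next, to see when the effects changed; consecutive comparisons share the libraries of an age. From 2 to 4 months the effect grew for 5 of the 8 genes, beside 3.77% of all genes with a larger and 0.893% with a smaller effect. The 166 genes with a smaller effect were 110 without rTg4510 replicate 4 of 2 months, and 106 or 107 without replicate 4 of rTg4510 or WT at 4 months. The 5 tested genes with a larger effect were Mmp12 (1.47 ± 0.334), Plau (1.45 ± 0.209), Plaur (1.32 ± 0.363), Timp2 (0.86 ± 0.094) and Serpine2 (0.70 ± 0.12), with limma FDR of 0.00908, 0.000161, 0.0299, 6.33e-06 and 0.00087. For Plaur this call was lost in a fit with only the groups compared (limma FDR 0.0732) and on leaving out any 1 of 8 libraries, namely rTg4510 replicates 2 and 4 and WT replicates 2 and 3 of 2 months (1.25, 1.22, 1.22 and 1.27) or rTg4510 replicates 1 and 4 and WT replicates 1 and 2 of 4 months (1.24, 1.20, 1.21 and 1.15). For Serpine2 it was lost with all 32 libraries (0.49) and with quantile normalization (0.57). Fgl2, which was not called, had a difference of effects of 0.02 with a 95% interval from -0.33 to 0.36.

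From 4 to 6 months limma called the difference of effects for 0 of the 8 genes, beside 0.0377% of all genes with a larger and 0.118% with a smaller effect (7 and 22 genes, and 1 to 7 and 4 to 28 without 1 library). From 6 to 8 months it was also 0 of the 8, beside 0% in each direction over the whole table, where 841 genes had an unadjusted p under 0.05. At both steps 0 of the 8 genes had an unadjusted p under 0.05, where the step from 4 to 6 months had 1514 such genes in the table. With moderated variances 0 of the 8 were called at either step. The widest of these intervals were those of Adam8, from -0.43 to 1.13 and from -0.23 to 1.32, so that sizeable shifts are not excluded by these numbers of libraries.

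Within rTg4510, Mmp12, Plau, Plaur, Timp2 and Serpine2 rose from 2 to 4 months, which is 5 of the 8 genes beside 4.03% of all genes higher and 2.36% lower. Their log2 differences were 1.49, 1.28, 1.49, 0.86 and 0.74 (limma FDR 0.000167, 3.89e-06, 0.000384, 1.75e-08 and 3.27e-06), and with all 32 libraries Serpine2 (0.57) was no longer called. From 4 to 6 months limma called 0 of the 8, beside 0.312% higher and 0.506% lower over the table. At an unadjusted p under 0.05, 2 of the 8, Mmp14 and Fgl2, were higher, beside 2605 of the 18588 genes in either direction. Without rTg4510 replicate 2 of 4 months the 58 higher and 94 lower genes of the table were 20 and 45, and without replicate 1 or 2 of 6 months 35 or 38 were higher. From 6 to 8 months limma again called 0 of the 8, beside 0.00538% higher and 0% lower (1 and 0 genes, and up to 22 and 2 without 1 library). Timp2 and Serpine2 were lower at an unadjusted p under 0.05, beside 2685 of the 18588 genes in either direction. With moderated variances the counts at these 3 steps were 5, 0 and 0.

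Other genes of the same families and pathways were counted from 9 lists, without the members themselves, beside the whole-table shares given above. Of the 3 other lysyl oxidases measured, Loxl4 was lower at 4 months (-0.87 ± 0.213, limma FDR 0.00425) and Loxl2 at 6 months (-1.67 ± 0.482, limma FDR 0.01), where 2 of 4 rTg4510 libraries were at the floor. Loxl3 was higher by 0.52 and 0.56 at 6 and 8 months, with limma FDR of 0.00141 and 0.00304, but under 1.5 fold. The list's median was -0.48, -0.87, -0.52 and -0.44 at the 4 ages.

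Among the 12 other metalloproteinases, 1 was higher and 1 lower at 4 months, 1 higher and 5 lower at 6 months, and 1 higher and 3 lower at 8 months. Mmp19, which is widely expressed, was the one higher, by 1.08 ± 0.273, 1.37 ± 0.236 and 1.33 ± 0.273 (limma FDR 0.00562, 9.97e-05 and 0.000802). Mmp9, a gelatinase, was lower at -0.94, -1.22 and -0.78, and Mmp8, the neutrophil collagenase, at -1.26 and -1.37 from 6 months on, with 2 of 4 rTg4510 libraries at the floor at 6 months. Mmp28 was lower at 6 and 8 months (-2.02 and -2.40), with 2 rTg4510 libraries at the floor at each age and 1 WT library at 6 months. Mmp15 was lower at 6 months, where 4 of 4 rTg4510 libraries were at the floor, and was at least 1.72-fold lower against the mean floor of these libraries. Mmp11 completed the 5 lower genes at 6 months (-0.63). Calls were lost without 1 library for Mmp19 at 4 months (WT replicate 4, 0.80), Mmp11 (rTg4510 replicate 3, -0.45; WT replicate 1, -0.58) and Mmp28, at 6 months without rTg4510 replicate 2 (-1.78) or 3 (-1.69) or WT replicate 2 (-1.82), and at 8 months without rTg4510 replicate 2 (-2.13) or 3 (-2.09) or WT replicate 3 (-1.94). The median of the list was -0.01, -0.18, -0.68 and -0.47, and that of 6 months was also -0.68 with Mmp15 at its bound. Of the inhibitors, Timp3 was lower at 6 months (-1.36 ± 0.411, limma FDR 0.0138), 1 of 2 measured besides Timp2, with list medians of -0.18, -0.67, -0.92 and -0.70, and its call was lost without rTg4510 replicate 3 (-1.17) or WT replicate 1 (-1.14).

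**Figure D2:**
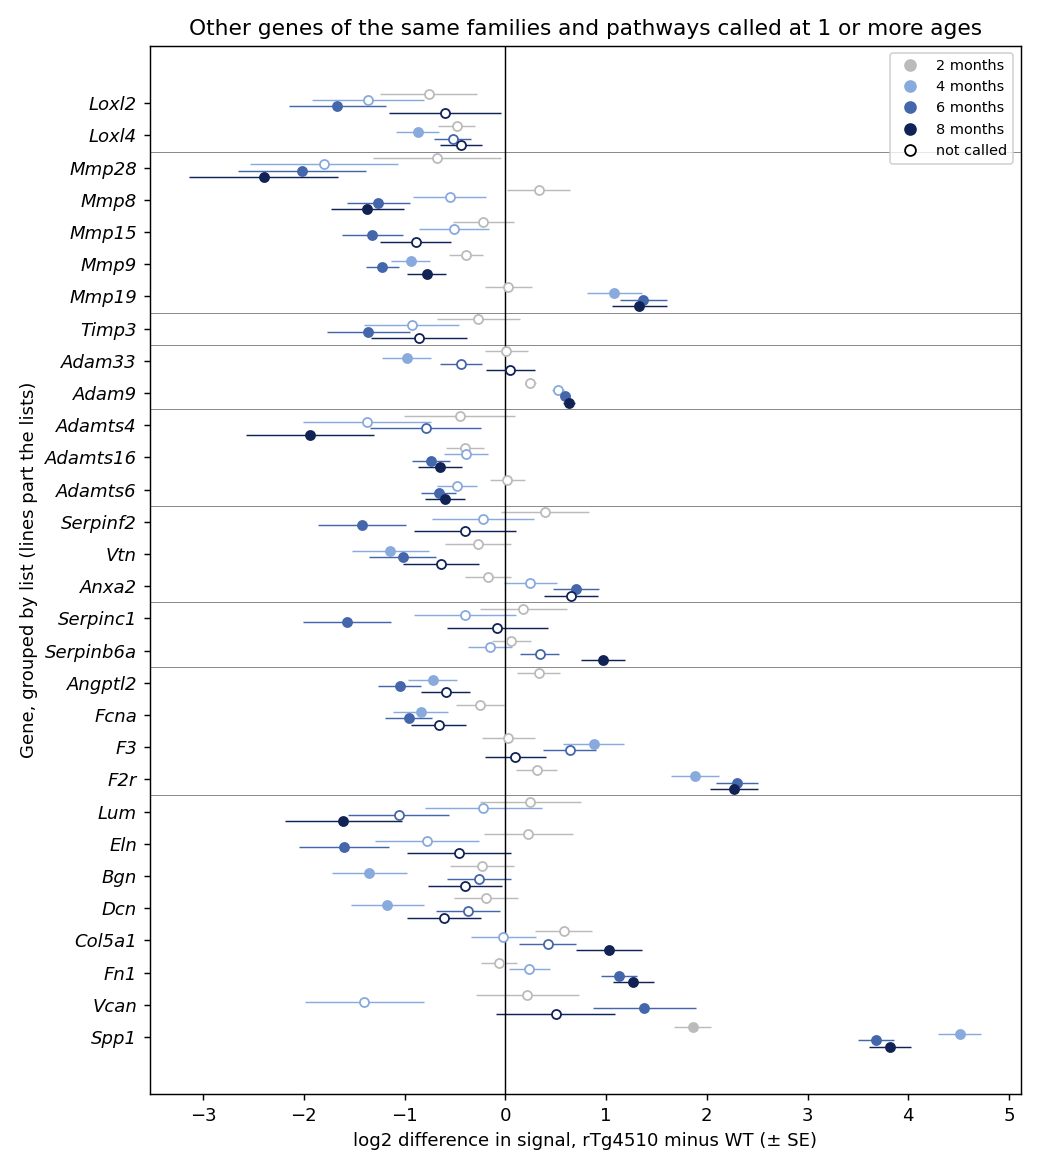
The log2 difference between rTg4510 and WT (horizontal axis, ± SE) of the listed genes that were called at 1 or more ages, grouped by list. At most the 6 largest increases and the 4 largest decreases of a list are drawn, so Mmp11 is not shown. Shades of blue and grey mark the 4 ages, and open points were not called. Mmp15 at 6 months is drawn at its fitted value, with 4 of 4 rTg4510 libraries at the floor. Spp1, F2r and Mmp19 lie to the right of 0 at 4, 6 and 8 months, with Spp1 the highest at 4.51, while Mmp9 lies to the left at these ages.

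Of 7 other ADAMs, Adam9 was higher at 6 and 8 months (0.59 ± 0.0505 and 0.63 ± 0.0583) and Adam33 was lower at 4 months (-0.98 ± 0.246), with list medians of 0.01, -0.02, 0.03 and 0.07. Of 10 ADAMTS genes, 2 were lower at 6 months (Adamts6, -0.66, and Adamts16, -0.74) and 3 at 8 months (those genes at -0.60 and -0.65, and Adamts4 at -1.94). The medians of that list were -0.04, -0.43, -0.71 and -0.57. At 6 months calls were lost for Adam9 without rTg4510 replicate 4 (0.56) or WT replicate 3 (0.54), for Adamts6 without rTg4510 replicate 4 (-0.57) or WT replicate 1 (-0.58), and for Adamts16 without rTg4510 replicate 1 (-0.57). At 8 months they were lost for Adamts4 without rTg4510 replicate 3 (-1.40) or WT replicate 1 (-1.59) or 2 (-2.0), for Adamts6 without replicate 2 (-0.57 in rTg4510, -0.61 in WT) or 3 (-0.50, -0.49) of either genotype, and for Adamts16 without rTg4510 replicate 1 (-0.60) or 3 (-0.62) or WT replicate 2 (-0.60) or 3 (-0.52).

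Of the plasminogen system, 9 genes besides the members were analysed here, which is not the whole system. Anxa2, a plasminogen-binding annexin, was higher at 6 months (0.70), Vtn lower at 4 and 6 months (-1.14 and -1.02), and Serpinf2, the plasmin inhibitor, lower at 6 months (-1.42). Thus 1 of the 9 was lower at 4 months, and 1 was higher and 2 were lower at 6 months, with medians of -0.08, -0.34, -0.05 and -0.29 at the 4 ages. Calls at 6 months were lost for Anxa2 without rTg4510 replicate 1 (0.52) or WT replicate 2 (0.66), for Serpinf2 without rTg4510 replicate 4 (-0.96), and for Vtn without rTg4510 replicate 3 (-0.90) or WT replicate 1 (-0.83). That of Vtn at 4 months was lost without rTg4510 replicate 1 (-1.20), 2 (-1.21) or 4 (-1.01) or WT replicate 2 (-1.08) or 4 (-0.95).

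Among 12 other serpins, Serpinc1, or antithrombin, was lower at 6 months (-1.57 ± 0.436) and Serpinb6a higher at 8 months (0.97 ± 0.221), with medians of 0.12, -0.40, -0.43 and -0.08. Of 8 coagulation and fibrinogen-related genes besides Fgl2, F2r, the thrombin receptor, was higher by 1.88 ± 0.238, 2.30 ± 0.206 and 2.27 ± 0.238 from 4 months on (limma FDR 3.41e-06, 1.36e-08 and 2.17e-07). Tissue factor, F3, was higher at 4 months (0.88), and Fcna (-0.84 and -0.96) and Angptl2 (-0.72 and -1.05) were lower at 4 and 6 months. The medians were 0.08, -0.40, -0.22 and -0.02. The F3 call was lost without any 1 of the 6 libraries of 4 months (rTg4510 replicates 1, 2 and 4, 0.82, 0.95 and 0.88; WT 0.88, 0.90 and 0.87). At the same age Fcna lost its call without replicate 1 of rTg4510 (-0.63) or WT (-0.65) or WT replicate 2 (-0.75), and Angptl2 without rTg4510 replicate 2 (-0.55) or 4 (-0.61) or WT replicate 1 (-0.67) or 4 (-0.66).

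Of 24 matrix substrates, 1 was higher at 2 months, 1 higher and 2 lower at 4 months, 3 higher and 1 lower at 6 months, and 3 higher and 1 lower at 8 months. Spp1, the secreted phosphoprotein osteopontin, was the one higher at each age, by 1.86 ± 0.182, 4.51 ± 0.211, 3.68 ± 0.182 and 3.82 ± 0.211 (limma FDR 2.61e-06, 2.98e-12, 3.29e-12 and 3.62e-11). Fn1, or fibronectin, was higher at 6 and 8 months (1.13 and 1.27), Vcan at 6 months (1.38) and Col5a1 at 8 months (1.03). Bgn (-1.35) and Dcn (-1.17) were lower at 4 months, Eln (-1.60) at 6 months and Lum (-1.61) at 8 months. The medians of the list were -0.09, -0.56, -0.34 and -0.50. Vcan lost its call without rTg4510 replicate 1 (1.21), 2 (1.47) or 3 (0.95) or WT replicate 2 (1.45), 3 (1.18) or 4 (1.38), Col5a1 without rTg4510 replicate 2 (1.03) or 3 (1.0) or WT replicate 1 (1.01) or 2 (0.92), and Dcn without rTg4510 replicate 2 (-0.91) or WT replicate 1 (-1.04). The Lum call was close to the threshold (limma FDR 0.046) and was lost without any 1 of 18 libraries, with differences from -1.64 to -1.45, among them rTg4510 replicates 2 (-1.49) and 3 (-1.45) and WT replicates 1 (-1.62), 2 (-1.58) and 3 (-1.64) of 8 months and 13 libraries of other ages (-1.61 each).

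Of 49 calls of listed genes, 31 were lost under 1 or more settings, 22 without 1 library and 27 under another setting. Also at the floor among the called differences was 1 rTg4510 library each for Bgn and Dcn at 4 months, Serpinf2 and Vtn at 6 months and Adamts4 at 8 months, and 1 WT library each for Spp1 at 2 months and Vcan at 6 months. In fits with only the groups compared, which leave fewer degrees of freedom, 23 calls were lost with unaltered differences. At 4 months these were Loxl4, Mmp9, Mmp19, Adam33, Vtn, Angptl2, Fcna and Dcn, at 6 months Loxl2, Mmp8, Mmp11, Mmp28, Timp3, Adamts16, Serpinf2, Anxa2 and Vcan, and at 8 months Mmp9, Mmp28, Adamts4, Adamts6, Adamts16 and Serpinb6a. With all 32 libraries 11 were lost, which were Mmp19 (0.68), Bgn (-0.76) and Dcn (-1.07) at 4 months, Loxl2 (-1.67), Timp3 (-1.36), Vtn (-1.02), Anxa2 (0.70) and Vcan (1.38) at 6 months, and Adam9 (0.50), Adamts4 (-1.69) and Adamts6 (-0.51) at 8 months. Quantile normalization ended 5, namely Mmp11 (-0.50), Adamts6 (-0.45), Serpinf2 (-1.18) and Vtn (-0.72) at 6 months and Adamts6 (-0.54) at 8 months. With a replicate block 4 were lost, Mmp28 at 6 and 8 months (-2.02 and -2.40) and Anxa2 (0.70) and Vcan (1.38) at 6 months.

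Markers of the captured and other cell types were read in the same libraries. The most abundant gene of a list is here the one with the highest mean signal over the 28 libraries, on a scale not divided by gene length, and it need not lead in each group. Of 11 microglial markers, 1, 3, 4 and 4 were lower in rTg4510 at 2, 4, 6 and 8 months (Fcrls at 2 months, Tmem119, Gpr34 and Sall1 at the later ages, with Itgam at 6 and Fcrls at 8 months). Their summed log2 signal ranged from 15.05 to 15.30 in WT and 14.88 to 15.05 in rTg4510 at 2 months, and from 14.83 to 15.10 and 14.50 to 14.60 at 8 months, with Cx3cr1 the most abundant. At 4 and 6 months the sums averaged 15.08 and 15.17 in WT and 14.78 and 14.81 in rTg4510, and the genotypes were separate from 4 months on. So the summed microglial markers were slightly lower in the libraries where the members named above were higher, and their part in the result was not tested.

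Of 9 neutrophil markers, among them Mmp8 and Mmp9, 1 was lower in rTg4510 at 4 months, 8 at 6 months and 8 at 8 months. At 4 months, when Mmp9 was the lower gene, their summed log2 signal was 10.08, 9.24 and 10.14 in WT and 8.90, 9.07 and 8.36 in rTg4510. It was 9.19, 10.20, 9.73 and 10.36 in WT and 7.91, 8.11, 8.28 and 7.59 in rTg4510 at 6 months. At 8 months it was 10.41, 10.16 and 10.04 in WT and 7.99, 8.61 and 9.14 in rTg4510. The genotypes were separate at these 3 ages, Ngp was the most abundant gene over all libraries, and Ly6g, a defining marker, was called at no age and was at the floor in 3 of 4 rTg4510 libraries at 6 months and 3 of 3 at 8 months, and in 1 WT library at each of these ages. Mmp8 and Mmp9 are themselves in these counts and sums, and no sum without them is given. The markers Camp, Ltf, Ngp, S100a8, S100a9 and Retnlg were also called lower at 6 and 8 months. At 4 months only Mmp9 was called. The part of neutrophils in the lower Mmp8 and Mmp9 signals was not tested.

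Of 11 fibroblast and mural markers, among them Dcn, Lum and Vtn, 2 were lower at each of 4 (Dcn and Vtn), 6 (Pdgfra and Vtn) and 8 months (Lum and Rgs5). Their summed signal was 7.63, 8.07 and 8.16 in WT and 7.44, 7.31 and 7.23 in rTg4510 at 4 months. Acta2 had the highest mean over all libraries, but other genes led at 4, 6 and 8 months. At 6 months the sum ranged from 7.26 to 7.91 in WT and from 6.45 to 7.38 in rTg4510, and at 8 months from 8.40 to 9.30 and from 7.79 to 8.66. The genotypes were separate at 4 months and overlapped at 6 and 8 months. Between libraries of the same number, whose deviations correlated at these 2 ages, the sum was lower in rTg4510 in 4 of 4 pairs at 6 months (-1.11 to -0.53) and 3 of 3 at 8 months (-0.94 to -0.61). The part of these cells in the lower Dcn, Lum, Vtn and Serpinf1 signals was not tested.

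Markers of other cells were counted in the same way. Of 4 monocyte markers, Ccr2, the most abundant, was lower at 4 months, and Ly6c2 and Plac8 were lower and Vcan higher at 6 months. At 4 months, when 7 of the 8 tested genes were higher, the summed monocyte signal was 7.58, 7.34 and 7.08 in WT and 6.65, 6.37 and 6.38 in rTg4510. The genotypes were thus separate at that age, and they overlapped at the other ages, with means of 7.26 in WT and 7.40 in rTg4510 at 6 months. Border macrophage markers (7 genes, Mrc1 the most abundant) had Lyve1 lower at 6 months, and their summed log2 signal averaged 10.85 in WT and 10.51 in rTg4510 at that age, with overlap, and 10.88 and 10.38 at 4 months, where the genotypes were separate. Of 7 endothelial markers (Cldn5 the most abundant), Flt1 was higher and Pecam1 lower at 4, 6 and 8 months, and Ly6c1 was lower at 6 months, with summed means of 7.67 in WT and 7.33 in rTg4510 at 6 months and overlap at each age. Of 6 astrocyte markers (Slc1a3 the most abundant), Gfap was higher and Aqp4 and Slc1a3 were lower at 6 and 8 months, and Slc1a2 was lower at 8 months, with summed means of 10.30, 10.32 and 10.82 in WT from 4 to 8 months and 9.90, 9.66 and 9.87 in rTg4510, separate at each of these 3 ages. Neuronal markers (3 measured, Camk2a) had Snap25 lower at 6 months, with summed means of 5.94, 6.07 and 6.42 in WT from 4 to 8 months and 5.33, 5.26 and 5.65 in rTg4510, also separate. Oligodendrocyte markers (5 genes) averaged 7.21 in WT and 6.43 in rTg4510 at 6 months, where alone they were separate, with medians of -0.85 at 6 months and -0.77 at 8 months, and their sum was lower in rTg4510 in 3 of 3 same-numbered pairs of 8 months (-0.99 to -0.49). Some called markers not named above for it had libraries at the floor. At 6 months these were 3 rTg4510 libraries each for Snap25 and the neutrophil marker Ltf, and 2 each for Plac8 and Pdgfra. It was 1 rTg4510 library each for Ly6c2 and Pecam1, and in WT 2 for Gfap and 1 for Pdgfra. At 8 months it was 1 rTg4510 library for Ltf. Every list had genes above the floor in some of the libraries, and the part of these cells in the results was not tested.

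Within the 10 genes, the pair with the most similar signals over the 28 libraries was Timp2 and Serpine2 (Pearson r = 0.962), followed by Lox and Timp2 (0.959) and Plaur and Timp2 (0.956). These r values include the difference between genotypes that all libraries share. For deviations from the group means, which leave that difference out, the highest r was 0.576 for Mmp12 and Plaur, and next came Mmp12 with Fgl2 (0.558) and with Plau (0.526). Libraries of a group that were high in Mmp12 thus tended to be high in these genes as well. Lox and Timp2, alike over all libraries, had an r of -0.575 for these deviations, and Lox and Serpine2 one of -0.434, but 16 of the 28 Lox values were at the floor, where deviations rest on few counts.

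Over the table, the protein-coding genes with signals most like that of Lox over the 28 libraries were Trpm6 (r = 0.99), Apoe (0.99) and Apoc1 (0.989). Those most like Plaur were Adssl1 (0.984), Axl (0.981) and Got1 (0.979), and those most like Timp2 were Cadm1 (0.989), Pld3 and Ctsa (0.987 each). Ctsa (0.974), Cd68 (0.974) and Glb1 (0.97), all with products of lysosomes, were most like Serpine2, and Ass1 (0.966), Ch25h (0.964) and Itgad (0.963) most like Plau. Lilrb4a (0.972), Gpr65 (0.968) and Cxcl16 (0.962) were nearest to Mmp12, and Slc6a6 (0.93), Vat1 (0.928) and B4galnt1 (0.927) to Mmp14. Adam8 had lower values, with Cd74 (0.862), Stap1 (0.844) and H2-Ab1 (0.839), and Fgl2 was most like Rcbtb2 (0.925), Hcar2 (0.917) and H2-DMb1 (0.915). Serpinf1 was most like Adgrl2 (0.968), Arap3 (0.953) and Il7r (0.952).

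Deviations from the group means gave other neighbours. For Mmp12 they were Cxcl2 (r = 0.909), Nfkbiz (0.883) and Plek (0.865), of which Cxcl2 encodes a chemokine and Nfkbiz a regulator of NF-κB. For Serpine2 they were Arsb (0.919), Sirpa (0.841) and Tgfbr2 (0.829), and for Adam8 Fosl2 (0.769), Trerf1 (0.766) and Nfatc2 (0.762). The nearest gene was Prelid3b for Lox (0.804, with the same limit of the floor), Hells for Mmp14 (0.767), Ms4a7 for Plau (0.79), Ucp2 for Plaur (0.79), Vcp for Timp2 (0.724), Spred1 for Serpinf1 (0.748) and Ccnl1 for Fgl2 (0.815). These r values over 28 libraries describe the same libraries and carry no test.

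Since several of the tested genes were higher at the same ages, the 250 bases before their starts were searched for 3 short motifs, on both strands, in RefSeq sequences of GRCm38.p6. Of the members, 8 were searched, with 9 starts; Lox was not searched and Plau had no entry. The AP-1 motif TGACTCA, present in 4.46% of the 32851 promoter windows of the table, was found before starts of Fgl2, Plaur and Mmp12. The PU.1 motif GAGGAAG (10.6% of windows) was found for Plaur and Mmp12, and the E-box CACGTG (6.02%) had no match in these 9 windows. The matches for Plaur and Mmp12 are shown, the 2 genes with both motifs, with up to 20 bases on each side on the plus strand and the motif in capitals; they overlap no exon of these genes in GENCODE M21. They lie at chr7:24462394-24462440 and chr7:24462332-24462378 for Plaur, both before a later start and inside the RefSeq gene, which begins at 24460937, and for Mmp12 at chr9:7347310-7347356, before a later start within the gene, and chr9:7344290-7344336. A match describes the letters only and is not evidence of a bound site.
Plaur AP-1: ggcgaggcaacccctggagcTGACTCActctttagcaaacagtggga
Plaur PU.1: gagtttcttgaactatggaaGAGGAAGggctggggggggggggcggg
Mmp12 AP-1: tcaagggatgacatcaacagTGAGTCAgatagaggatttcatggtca
Mmp12 PU.1: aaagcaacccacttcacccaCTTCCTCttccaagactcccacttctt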

How the data were processed

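The authors deposited log2 gene signals with a median of 5.63 in each of 32 libraries, as they were median normalized together. A robust linear model over exons gave each signal; exons with low counts in most samples had been left out and repeat runs pooled. Their processing notes name GRCm38; aligner and annotation are not given in the sources used here. The deposited table holds no read totals of the libraries. Of 48033 values under 5 inferred counts, 41.0% lay within 0.003 of a whole-count step and 22.5% of a midway step, where evenly spread values would give 1.59% each; the floor of 3 counts is inferred from this.

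Genes were matched by Entrez number to RefSeq GRCm38.p6 (95.9% found), and 0 columns of values were unused. Members, lists and motifs were chosen with earlier results of these data known, 97 of 133 entries of the pathway lists were in the table, and a few further genes are not analysed here. With limma 3.58.1 in R 4.3.3, 8 group means were fitted per gene with unmoderated variances (20 residual degrees of freedom), and p-values were Benjamini-Hochberg adjusted over all genes of a contrast. Libraries are biological replicates made of pooled animals. The model was tested on simulated data. Named were all members, per list the called genes with at most 6 increases and 4 decreases, and per member the 3 most correlated protein-coding genes; Loxl3, Mmp11 and the called marker genes were added after their values were seen. Deviations of same-numbered libraries of both genotypes correlated with r of 0.131 to 0.153 at 6 months and 0.15 to 0.291 at 8 months. Their r was 0.0649 to 0.167 at 2 months and -0.0999 to 0.124 at 4 months. Libraries of different numbers had r of -0.127 to 0.0913 at 6 months and -0.259 to -0.0281 at 8 months, below the same-numbered ones. At 2 months they had -0.194 to 0.0816 and at 4 months -0.0709 to 0.154, with overlap. The labels do not say what a number marks. Figures were drawn with matplotlib 3.10.9.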

Additional observations from a re-analysis of the deposited data

Results flagged for a closer look

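The effect of genotype differed between 4 and 2 months, by a test of that difference, for Mmp12 (by 1.47 in log2 terms), Plau (1.45), Plaur (1.32), Timp2 (0.86) and Serpine2 (0.70). Dixon's outlier criterion (critical value 0.829) flagged 1 of 40 combinations of gene and group of 4 libraries, where chance gives about 1 in 20. It was WT replicate 1 of 2 months for Serpinf1 (8.11). This check within groups covered all 10 genes, Lox and Serpinf1 included, and compared no groups.

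The rTg4510 libraries left out of the comparisons, which had failed quality control, exceeded every WT library of their age for 8 of the 10 genes at 4 months and for 9 at 8 months. For Serpine2 at 4 months this was by less than the printed digits show, since the excluded WT library also had 9.32. The share of all genes above every WT library was not computed, so these counts have no background and are no repeat of the result. They include Lox, chosen for its pattern, and at 4 months Serpinf1. At 4 months, replicate 3 had log2 signals of 6.73 for Lox, 6.35 for Mmp12, 8.99 for Plau, 7.19 for Plaur, 10.56 for Timp2, 9.32 for Serpine2, 8.97 for Serpinf1 and 8.18 for Fgl2. For Serpinf1 this is opposite to the 3 kept rTg4510 libraries, which lay below WT. The signals of 4.34 for Mmp14 and 3.17 for Adam8 in this replicate 3 were below every WT library, and its Adam8 value was at the floor. At 8 months, replicate 4 had 7.63 for Lox, 7.45 for Mmp12, 6.42 for Mmp14, 5.32 for Adam8, 8.47 for Plau, 8.11 for Plaur, 10.04 for Timp2, 9.97 for Serpine2 and 8.71 for Fgl2. Its Serpinf1 signal, also 6.42, was below the 8.02 of the excluded WT library.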

How the results depend on the processing

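Of 332 log2 differences of the 10 genes under alternatives other than leaving out a library, 313 kept direction and call or, for the untested Lox and Serpinf1, moved by under 1 SD, 12 lost the call, 2 moved (Lox at 8 months with quantile normalization, 4.79, and Serpinf1 at 4 months with all 32 libraries, -0.15) and 5 reversed, each uncalled before and after. With all 32 libraries these were Mmp14 from 2 to 4 months as an effect of genotype (-0.08) and within rTg4510 (-0.21), and Adam8 at 4 months (-0.32) and as a difference of effects (-0.33), and with quantile normalization the Fgl2 difference of effects (-0.04). Among the 32, the otherwise excluded rTg4510 library of 4 months was at the floor for Adam8. Within its SD, Serpinf1 at 2 months changed sign with quantile normalization (-0.02) and without 1 library (-0.06 to 0.08). By the same measure, leaving out 1 library kept 1560 of 1596 values, and the reversals of tested genes were uncalled: Adam8 at 2 months (-0.20 to 0.25), at 4 months (-0.09 to 0.09) and as a difference of effects (-0.23 to 0.22), Plau at 2 months (-0.01 to 0.11) and the Fgl2 difference of effects (-0.06 to 0.13). Uncalled differences that moved by over 1.5 times without 1 library, with their direction kept, were Mmp12 (0.14 to 0.34) and Serpine2 (0.08 to 0.22) at 2 months, Adam8 at 6 months (0.16 to 0.49) and from 2 to 4 months of rTg4510 (0.26 to 0.72), and Mmp14 from 2 to 4 months as an effect of genotype (0.13 to 0.33) and within rTg4510 (0.04 to 0.20). With quantile normalization Serpine2 (0.05) and Plau (0.01) at 2 months were smaller, as was Adam8 from 2 to 4 months of rTg4510 with all 32 libraries (0.16). In fits of only the groups compared, 1, 6, 7 and 6 of the 8 genes were called at the 4 ages, 4 for the difference of effects between 4 and 2 months, and limma called 0 between 8 and 2 months of WT, where 2649 of all genes had an unadjusted p under 0.05; the fewer libraries leave fewer degrees of freedom. With a replicate block the counts at the 4 ages were 2, 7, 7 and 8, and no call of the 8 genes changed. Without 1 library they were 1 to 2, 6 to 7, 6 to 7 and 7 to 8. Quantile normalization called 213 genes higher and 99 lower at 2 months, beside 293 and 75, and 51 and 53 from 4 to 6 months of rTg4510, beside 58 and 94. All 32 libraries gave 135 and 30 at 2 months, and 93 and 83 from 4 to 6 months of rTg4510. Fits of only the groups gave 196 and 48 at 2 months, 1166 and 395 at 4 months beside 1760 and 804, 1380 and 474 at 8 months beside 1952 and 998, 483 and 183 from 2 to 4 months of rTg4510 beside 749 and 438, and 1 gene from 4 to 6 months. The 7 larger and 22 smaller effects from 4 to 6 months were 1 and 5 with all 32 libraries, 2 and 11 with quantile normalization, 3 and 8 with a replicate block, 5 smaller in fits of only the groups and 7 smaller with the filter below. The block gave 9 higher genes from 6 to 8 months of rTg4510 beside 1, and the filter 31 and 51 from 4 to 6 months of rTg4510 and 61 higher from 2 to 8 months of WT beside 99. Of 49 calls of listed genes, 31 were lost under 1 or more of these settings. A filter at the 25th percentile of signal removed Lox and Adam8, which then have no value. Groups of 3 or 4 libraries limit how finely differences are resolved, and for the other changes the cause was not tested.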
